A study of Mus musculus with 6 samples.

Results

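The variable (V) and constant (C) segments of the T cell receptor loci were examined in spleen RNA of NOD.B10 and BL/10 mice. Segments were taken as all genes whose symbol starts with Trav, Trac, Trbv, Trbc, Trgv, Trgc, Trdv or Trdc and that had at least 10 reads counted over the 6 libraries. This left 77 of 174 segments with such a symbol, among 47729 genes in the table. The 77 were 46 alpha V segments and Trac, 22 beta V segments with Trbc1 and Trbc2, 4 delta V segments and Trdc, and 1 gamma V segment, Trgv2.

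Whole spleens of 3 NOD.B10 and 3 BL/10 females, each library from a separate mouse, were compared to ask how the RNA of a mouse strain with Sjögren's syndrome-like disease differs from that of a healthy control strain. NOD.B10 (NOD.B10Sn-H2b/J) mice carry the NOD genome with the H2b region of the B10 background, so receptor loci outside H2 are those of NOD, whereas BL/10 is C57BL/10. The labels name no transgene or treatment. The NOD.B10 libraries and BL/10 replicate 1 are labelled 26 weeks old, and BL/10 replicates 2 and 3 are labelled 36 weeks old. The titles and strain fields of all 6 libraries name the opposite strain to their descriptions and count columns. The descriptions were followed here, and every direction given would reverse under the titles. The libraries held between 15662712 and 18298451 counted reads.

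A T cell receptor is a pair of chains, alpha with beta or gamma with delta, and each chain joins a V segment to a C segment by DNA recombination in the developing T cell. The V segment supplies most of the part that meets antigen, and the C segment anchors the chain and pairs it with the CD3 chains that carry the signal inward. In the mouse, a stretch of the alpha array was copied within the locus, which gave near-identical V segments marked d and n in their symbols, and the delta locus lies inside the alpha locus.

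The receptor segments were higher in NOD.B10 spleens. Of the 29 segments with enough reads for the test (edgeR's quasi-likelihood test with Benjamini-Hochberg adjustment over 15330 genes, adjusted p under 0.05), 19 were higher and 0 were lower in NOD.B10, while 9.11% of all tested genes were higher and 8.22% were lower. At an unadjusted p under 0.05 the edgeR test passed 25 of the 29, and DESeq2 called 22 higher and 0 lower (10.4% and 11.2% of all genes). The median log2 fold change was 1.21 over the 29 segments and 0.00 over all tested genes. All 3 NOD.B10 libraries lay above all 3 BL/10 libraries for 25 of the 29 segments (20.5% of all genes) and the reverse held for 0 (17.5% of all genes). Without the 4 segments that were almost unread in BL/10, described further on, 15 of 25 were higher. Among those 15, Trav6n-6 and Trbv4 reached the test through their NOD.B10 reads alone, so the filter in part fixed their calls. The count depended on the libraries, with 9 called without NOD.B10 replicate 3 and 11 without NOD.B10 replicate 1. Leaving out the libraries labelled 36 weeks left 1 BL/10 library, and the median log2 fold change was then 1.01. In that fit Trac, Trbc1 and Trbc2 had smaller log2 fold changes than in the main fit, 0.92, 0.66 and 0.80. Calls over all genes moved too, with 1395 of 15582 called without NOD.B10 replicate 3 and 1269 of 15629 without NOD.B10 replicate 1. The main fit called 2656 of 15330 genes in either direction. The other 48 segments had too few reads for the filter, and when all genes with at least 1 read were tested, 40 of the 77 segments were higher and 0 lower in NOD.B10 (5.58% and 5.89% of all genes tested in that way).

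The C segments, which every receptor of a locus shares, carried most of the reads. Trac (ENSMUSG00000076928, chromosome 14, 54220521 to 54224206 of GRCm38), the C segment of the alpha chain, was present at 72.2, 68.9 and 102 CPM in NOD.B10 replicates 1, 2 and 3 and at 43.0, 31.9 and 27.7 CPM in BL/10 replicates 1, 2 and 3, where CPM is the read count scaled to a common library size by TMM normalization. Every NOD.B10 library was above every BL/10 library, and BL/10 replicate 1 was the highest of its strain. The means were 81.1 ± 18.3 and 34.2 ± 7.90 CPM (SD, n = 3), which gave a log2 fold change of 1.25 ± 0.20 (SE) and an adjusted p of 0.00652 in edgeR.

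Trbc1 and Trbc2 encode the alternative C regions of the beta chain. Trbc1 (chromosome 6, 41538218 to 41539881) had 56.2, 53.5 and 66.8 CPM in NOD.B10 and 37.2, 29.6 and 22.8 CPM in BL/10. Trbc2 (chromosome 6, 41546730 to 41548352) had 85.0, 78.7 and 120 CPM in NOD.B10 and 54.4, 41.2 and 34.2 CPM in BL/10. The strains did not overlap for either gene. Their log2 fold changes were 0.98 ± 0.18 and 1.13 ± 0.21 (SE), with adjusted p = 0.00996 and 0.0110 from edgeR. Of the 50-base windows of Trbc1 and Trbc2 transcripts, the length of the reads, 59.5% and 56.0% occur in no other gene, so reads that fit both were not counted and the 2 totals are of their distinct parts. Trbc1 made up 39.8%, 40.5% and 35.8% of the summed Trbc reads in NOD.B10 and 40.6%, 41.8% and 39.98% in BL/10, ranges that overlapped.

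Trdc, the C segment of the delta chain, set BL/10 replicate 1 apart. It had 159, 157 and 202 reads in NOD.B10 and 5, 90 and 65 reads in BL/10. The NOD.B10 libraries were all higher, and BL/10 replicate 1 lay far below the other BL/10 libraries. Its log2 fold change, 1.64 ± 0.66 (SE), did not pass the test (adjusted p = 0.124 from edgeR), and without BL/10 replicate 1 it was 1.06 with adjusted p = 0.0157. Without the libraries labelled 36 weeks, which leaves BL/10 replicate 1 alone in its strain, it was 5.19. The exons of Trdc overlap those of Gm43434 and Trdv5, and strand was not used in counting, so reads from these genes cannot be told apart there.

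**Figure D1:**
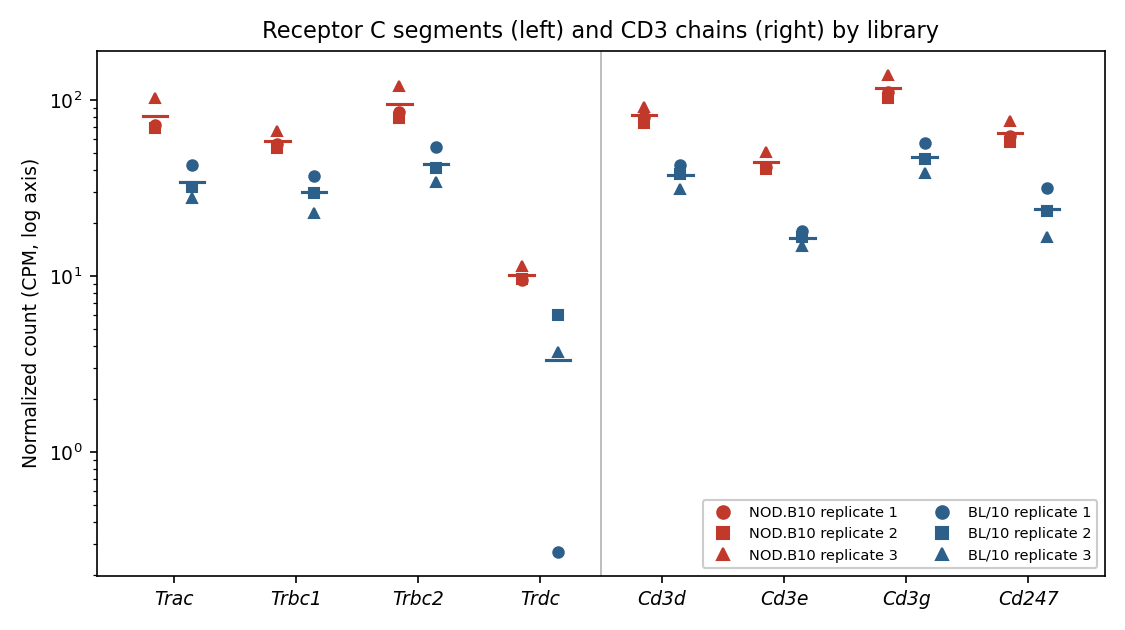
Normalized counts (CPM, log axis) of the 4 receptor C segments and the 4 CD3 chain genes, 1 point per library and a bar at the mean of the 3 libraries of a strain. All NOD.B10 points lie above all BL/10 points for each gene, and Trdc in BL/10 replicate 1 (5 reads) lies far below the rest.

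The CD3 chain genes, whose proteins are needed to bring every receptor to the surface, were also higher in NOD.B10, with 4 of 4 genes past the threshold and a median log2 fold change of 1.37. Their summed level was 294, 274 and 358 CPM in NOD.B10 and 149, 124 and 101 CPM in BL/10. Among 20 other T lineage genes, such as coreceptors and proximal kinases, 15 were higher and 0 lower (median log2 fold change 1.10). Cd2, Cd8a, Cd8b1, Ubash3a and Gimap3 did not pass. Of the coreceptors, Cd4 was higher (log2 fold change 0.96, adjusted p = 0.00805 from edgeR). Cd8a and Cd8b1 had log2 fold changes of 0.16 and -0.40 (adjusted p = 0.528 and 0.190 from edgeR). In whole spleen RNA, a larger number of T cells and more RNA per T cell cannot be told apart.

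Other cell populations also differed between these libraries. None of 10 B cell markers passed the test in either direction (2923 to 5164 CPM summed in BL/10, 3907 to 5125 CPM in NOD.B10), while 6 of 10 plasma cell markers were higher (2368 to 2993 CPM in BL/10, 3679 to 4215 CPM in NOD.B10). Of 10 neutrophil markers, 9 were lower in NOD.B10 (2157 to 2497 CPM, against 6122 to 12789 CPM in BL/10). All 9 tested pancreas acinar markers were lower, with 21.9 to 31.0 CPM in NOD.B10 and 12173, 1846 and 107 CPM in BL/10 replicates 1, 2 and 3. Of macrophage markers 2 of 10 were higher and 1 lower, of NK cell markers 1 of 9 was higher and 1 lower, of innate-like T cell markers 0 of 5 were higher and 1 lower, and of 9 erythroid markers 0 passed in either direction. No defining marker of these lists was at 0 in all libraries. The part of these differences in the receptor results was not tested. Without BL/10 replicate 1, the library richest in pancreas RNA, 28 of 34 tested receptor segments were higher, with a median log2 fold change of 1.52. It is also the only BL/10 library labelled 26 weeks, so age and strain cannot be told apart without it. Calls over all genes rose in that fit too, to 4107 of 15590 in either direction from 2656 of 15330.

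The largest fold changes among the tested segments were those of alpha V segments, 4 of which lie in a single stretch of the array. All 5 alpha V segments that reached the test were higher in NOD.B10. All 5 reached it through their NOD.B10 reads alone, so this count was fixed in part by the filter. The 4 in that stretch were Trav14-1, Trav15-1-dv6-1, Trav3-3 and Trav5-4. Each had at least 10 reads in every NOD.B10 library and at most 3 in every BL/10 library, a pattern shown by 0.574% of all tested genes. For 3 of them the sequence is shown, because a near-identical copy lies elsewhere in the array. Their last 200 coding bases, from GENCODE M21 transcripts of GRCm38, are given with those of the d copy, 5′ to 3′ on the plus strand, with the bases that differ between the pair in capitals. Trav3-3 lies on chromosome 14 at 53665929 to 53666506, Trav5-4 at 53704007 to 53704514 and Trav14-1 at 53554022 to 53554558, and each stretch ends at the end of the coding exon, before the recombination signal.
Trav3-3: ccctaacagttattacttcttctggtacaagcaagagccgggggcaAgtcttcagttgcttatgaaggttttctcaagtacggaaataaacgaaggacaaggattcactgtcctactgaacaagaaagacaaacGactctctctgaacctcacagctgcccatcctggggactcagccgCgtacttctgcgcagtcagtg
Trav3d-3: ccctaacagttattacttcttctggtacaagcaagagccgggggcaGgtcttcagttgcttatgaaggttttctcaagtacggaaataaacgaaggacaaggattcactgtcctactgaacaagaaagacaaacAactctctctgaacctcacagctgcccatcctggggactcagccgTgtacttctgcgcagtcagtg
Trav5-4: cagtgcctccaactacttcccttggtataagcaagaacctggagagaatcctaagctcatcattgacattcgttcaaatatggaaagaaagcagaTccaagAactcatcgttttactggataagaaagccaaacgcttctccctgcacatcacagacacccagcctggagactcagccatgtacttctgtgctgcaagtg
Trav5d-4: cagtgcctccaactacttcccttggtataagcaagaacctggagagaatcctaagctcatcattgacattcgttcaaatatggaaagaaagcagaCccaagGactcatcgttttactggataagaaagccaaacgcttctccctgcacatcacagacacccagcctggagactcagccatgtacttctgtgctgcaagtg
Trav14-1: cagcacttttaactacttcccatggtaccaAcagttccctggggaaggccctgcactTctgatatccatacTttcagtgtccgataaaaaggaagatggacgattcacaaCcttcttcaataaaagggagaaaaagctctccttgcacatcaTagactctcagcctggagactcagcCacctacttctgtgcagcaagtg
Trav14d-1: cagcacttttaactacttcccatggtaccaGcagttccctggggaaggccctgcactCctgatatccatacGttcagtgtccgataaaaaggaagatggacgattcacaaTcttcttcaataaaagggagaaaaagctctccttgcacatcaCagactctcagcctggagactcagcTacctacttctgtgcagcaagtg
The pairs differ at 3, 2 and 6 of these 200 bases, and the n copies have the same coding sequence as the d copies. Reads over a differing base can be placed on one copy, whereas a read that fits more than one copy was left out of the counts.

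Trav3-3 had 18, 17 and 32 reads in NOD.B10 and 0 in each BL/10 library. Trav5-4 had 14, 11 and 33 reads in NOD.B10, and Trav14-1 had 10, 11 and 17, each with 0 in all BL/10 libraries. Trav15-1-dv6-1, a segment that can join to either the alpha or the delta chain, had 11, 10 and 20 reads in NOD.B10 and 0, 1 and 0 in BL/10. That the strains do not overlap was fixed by the rule that set these segments apart. Set against a floor of 3 reads over the 3 BL/10 libraries, which covers counting error only, Trav3-3 was at least 22.4-fold, Trav5-4 at least 19.4-fold and Trav14-1 at least 12.7-fold higher in NOD.B10. Adjusted p was 0.00344, 0.0116, 0.00450 and 0.00450 for Trav3-3, Trav5-4, Trav14-1 and Trav15-1-dv6-1 in edgeR's quasi-likelihood test. These values are a description only, since the segments reached the test through their NOD.B10 reads and were set apart by their counts. The d copies printed above had 3 reads (Trav3d-3), 0 (Trav5d-4) and 0 (Trav14d-1) over all 6 libraries, and none of their 50-base windows is unique among annotated transcripts.

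These 4 segments are neighbors of others with the same pattern. The V segments of chromosome 14 were read in order, and the run with the most segments that had a read was taken in which each had at most 3 reads over the 3 BL/10 libraries. The run was ended at its outermost segments with a read in any library, Trav9n-4 and Trav5-4, at 53294341 to 53704514 of chromosome 14 in GRCm38. It spanned 410 kb, from 926 to 516 kb before the start of Trac, and held 41 of the 134 V segments of the locus. Segments on either side with no read in any library were left out, up to Trav13n-1 before it (0 reads in NOD.B10 and 0, 3 and 2 in BL/10) and Trav7-6 after it (2, 1 and 0 reads against 1, 1 and 2). The run was found after the counts were seen and by the BL/10 counts themselves, so its BL/10 values are a description. Its segments together had 161, 155 and 257 reads in NOD.B10 and 3, 1 and 4 reads in BL/10. The alpha V segments outside it had 144, 130 and 199 reads in NOD.B10 and 92, 72 and 61 reads in BL/10.

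The run thus held 52.8% (95% exact binomial interval 47.0 to 58.5), 54.4% (48.4 to 60.3) and 56.4% (51.7 to 61.0) of all alpha V reads in the NOD.B10 libraries. In BL/10 it held 3.16%, 1.37% and 6.15%, given without intervals because the run was chosen by its BL/10 reads. The NOD.B10 libraries were close to each other, and their distance from the BL/10 libraries was in part fixed by that choice. Scaled to library size, the run was 71.8-fold higher in NOD.B10, a ratio raised by the choice of segments on their BL/10 reads and given with no interval for that reason, and the other alpha V segments were 2.11-fold higher (counting interval 1.79 to 2.48). The longest run of the opposite kind, with at most 3 reads per segment over NOD.B10, held 7 segments with a read, which had 0, 4 and 3 reads in NOD.B10 and 2, 1 and 1 in BL/10.

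**Figure D2:**
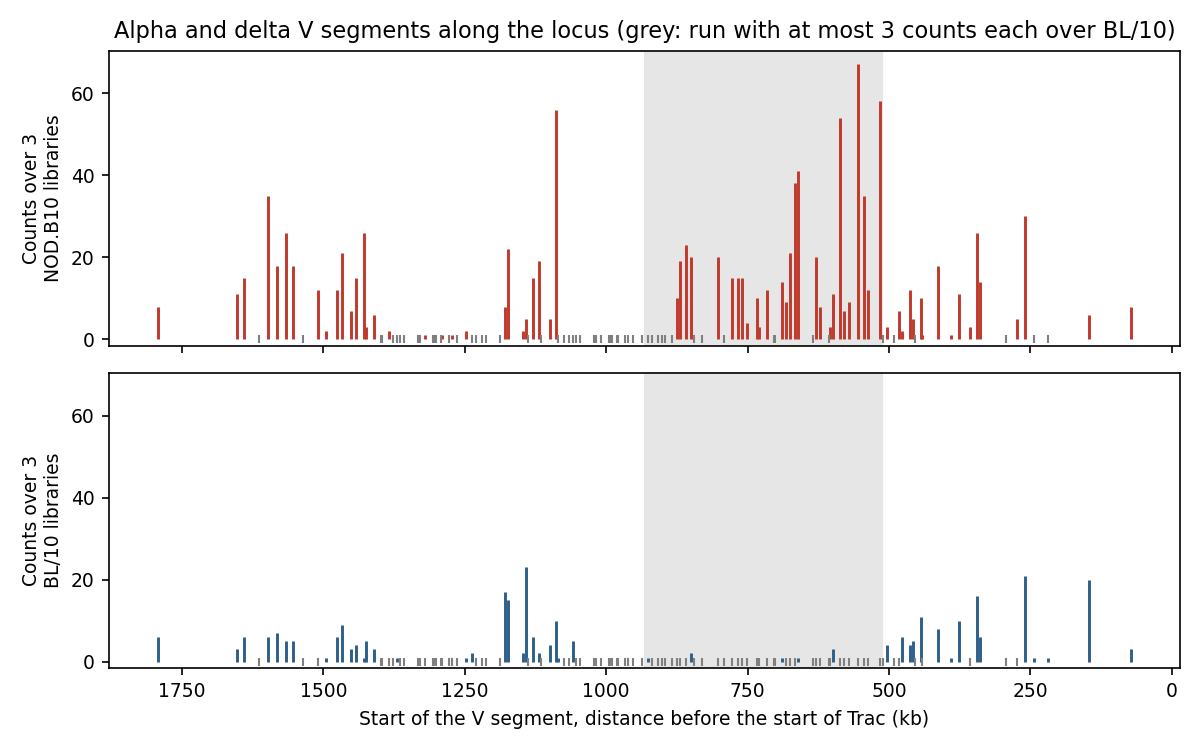
Reads counted over the 3 libraries of each strain on every V segment of the alpha and delta locus, against the distance of its start from the start of Trac in kb (ticks mark segments at 0). In the grey run the NOD.B10 panel holds 573 reads and the BL/10 panel 8, and both panels have reads on either side of it.

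Within the run, 21 segments were among the 77. Of these, 17 had 0 reads in all BL/10 libraries (0.39% of genes with at least 10 reads) and the NOD.B10 libraries of all 21 lay above those of BL/10 (18.6% of such genes), counts that the choice of the run in part fixed. No segment among the 77 was at 0 in all NOD.B10 libraries (0.354% of such genes). Trav13-2 was the most abundant of those not yet named, with 19, 9 and 26 reads in NOD.B10 and 0 in BL/10, followed by Trav9-4 with 10, 8 and 17 reads against 0. The only member of the run with 3 reads over BL/10 was Trav12-3, with 5, 2 and 4 reads in NOD.B10 and 1, 0 and 2 in BL/10. Trav13-2, Trav9-4 and Trav12-3 were picked here after their values were seen. With all genes of at least 1 read tested, 19 of the 21 were higher in NOD.B10 (5.58% of all genes tested in that way). The choice of the run in part fixed this count too.

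Segments outside the run had reads in both strains. Of the 25 alpha V segments outside it, 1 was at 0 in all BL/10 libraries (0.39% of genes with at least 10 reads). The NOD.B10 libraries lay above those of BL/10 for 8 of the 25 (18.6% of such genes). With all genes of at least 1 read tested, 6 were higher and 0 lower (5.58% and 5.89% of all genes tested in that way). Trav6n-6, the nearest member before the run, had 23, 15 and 18 reads in NOD.B10 and 5, 2 and 3 in BL/10, without overlap (log2 fold change 2.45 ± 0.36 SE, with edgeR adjusted p = 0.00415). Trav6n-6 reached the test through its NOD.B10 reads alone, so its p is a description only. Trav13-4-dv7, the nearest member after it, had 5, 0 and 7 reads in NOD.B10 and 1, 3 and 0 in BL/10. Trav21-dv12, close to the delta V segments, had 6, 5 and 15 reads in NOD.B10 and 2, 9 and 5 in BL/10, with overlap.

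A few alpha V segments leaned the other way. Trav14d-3-dv8 had 4, 0 and 1 reads in NOD.B10 and 10, 6 and 7 in BL/10, without overlap, and Trav8d-2 had 3, 2 and 3 reads against 7, 7 and 3. Neither had enough reads for the main test, and neither passed when all genes of at least 1 read were tested. Of the 73 alpha V segments with d or n in their symbols, 39 have no 50-base window of their own, and 37 of these had at most 1 read over all libraries. Relative to Trac, alpha V reads with the run included were more frequent in NOD.B10. They were 25.3, 25.4 and 25.1 reads per 100 Trac reads, against 12.0, 15.4 and 13.3 in BL/10. The run held 52.8%, 54.4% and 56.4% of them in NOD.B10, and 3.16%, 1.37% and 6.15% in BL/10. Alpha V reads outside the run were 144, 130 and 199 in NOD.B10, beside 1207, 1122 and 1818 Trac reads. In BL/10 those outside it were 92, 72 and 61, beside 791, 475 and 487 Trac reads.

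Alpha V segments of innate-like T cell receptors gave few reads. Trav11 and Trav11d, the alpha V segments of the invariant natural killer T cell receptor, were at 0 in all libraries and have no window that is not shared, so a read that lies within them could not be placed. Trav1, the alpha V segment of mucosal-associated invariant T cells, had 3, 2 and 3 reads in NOD.B10 and 4, 2 and 0 in BL/10.

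Beta V segments showed a broad shift with no such gap. Of 19 tested beta V segments, 11 were higher and 0 lower in NOD.B10, beside 9.11% and 8.22% of all tested genes. Trbv4, among the 11, and Trbv5, which was not called, reached the test through their NOD.B10 reads alone. The NOD.B10 libraries lay above those of BL/10 for 16 (20.5% of all genes), and 18 had a positive log2 fold change. Their median log2 fold change was 1.08, close to those of Trbc1 and Trbc2. Beta V reads per 100 Trbc reads were 71.9, 65.9 and 66.6 in NOD.B10 and 71.2, 69.1 and 65.6 in BL/10, ranges that overlapped.

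Per kilobase, Trbv13-2 was the most abundant beta V segment in both strains, with 32.5 CPM per kb in NOD.B10 and 16.3 in BL/10. Its level was 10.1, 9.52 and 13.5 CPM in NOD.B10 and 6.84, 5.10 and 4.66 CPM in BL/10 (log2 fold change 1.00 ± 0.20 SE, with edgeR adjusted p = 0.0156). Trbv13-1, Trbv13-2 and Trbv13-3 are the segments of the Vβ8 family, and Trbv13-3 was also higher (log2 fold change 1.08, adjusted p = 0.0172 from edgeR). Trbv13-1 had 6.52, 6.94 and 9.44 CPM in NOD.B10 and 5.92, 4.43 and 2.95 CPM in BL/10. Its libraries did not overlap, but its log2 fold change of 0.78 did not pass the test (adjusted p = 0.0841 from edgeR).

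Trbv15 had the smallest p among the beta V segments. It was present at 10.6, 7.55 and 9.10 CPM in NOD.B10 and at 2.99, 2.62 and 1.99 CPM in BL/10, where every NOD.B10 library lay above the highest BL/10 library. Its log2 fold change of 1.84 ± 0.21 (SE) had an adjusted p of 0.00132 in edgeR. Trbv16 had 11.4, 7.49 and 13.9 CPM against 6.46, 3.82 and 3.69 CPM (log2 fold change 1.22, adjusted p = 0.0279 from edgeR).

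Trbv1, Trbv19 and Trbv29 were also higher, with log2 fold changes of 0.85, 1.21 and 0.75 and adjusted p from edgeR of 0.0301, 0.0177 and 0.0283. Each of these calls, and that of Trbv16, was lost in 4 of 6 fits that left out 1 library, with adjusted p in edgeR of up to 0.0892, 0.0662, 0.111 and 0.0967. Trbv4 had 13, 22 and 21 reads in NOD.B10 and 10, 3 and 2 in BL/10 (log2 fold change 1.89 ± 0.49 SE, with edgeR adjusted p = 0.0373). Since it reached the test through its NOD.B10 reads alone, this p is a description only. The exons of Trbv4 overlap 5830405F06Rik, 27.9% of its 50-base windows are unique, and its call was lost in 5 of 6 fits that left out 1 library. Trbv31, which lies beyond Trbc2 on the opposite strand and joins by inversion, was picked after its values were seen. It had 5.08, 4.48 and 6.91 CPM in NOD.B10 and 2.66, 1.41 and 1.08 CPM in BL/10 (log2 fold change 1.66 ± 0.34 SE, with edgeR adjusted p = 0.0156). The calls of Trbv13-2, Trbv13-3 and Trbv31 were lost in 3, 2 and 2 of the 6 fits, and those of Trbv15, Trac, Trbc1 and Trbc2 in 0.

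Trbv26, Trbv14 and Trbv17 had the lowest log2 fold changes of the 19 tested beta V segments. Trbv26 had 20, 15 and 26 reads in NOD.B10 and 41, 21 and 23 in BL/10. Its libraries overlapped, and it was the only tested receptor segment with a negative log2 fold change (-0.47 ± 0.30 SE, edgeR adjusted p = 0.308). Trbv14 had 55, 42 and 55 reads against 60, 44 and 27 (log2 fold change 0.21, adjusted p = 0.644 from edgeR), and Trbv17 had 39, 28 and 42 against 31, 23 and 26 (log2 fold change 0.45, adjusted p = 0.188 from edgeR).

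**Figure D3:**
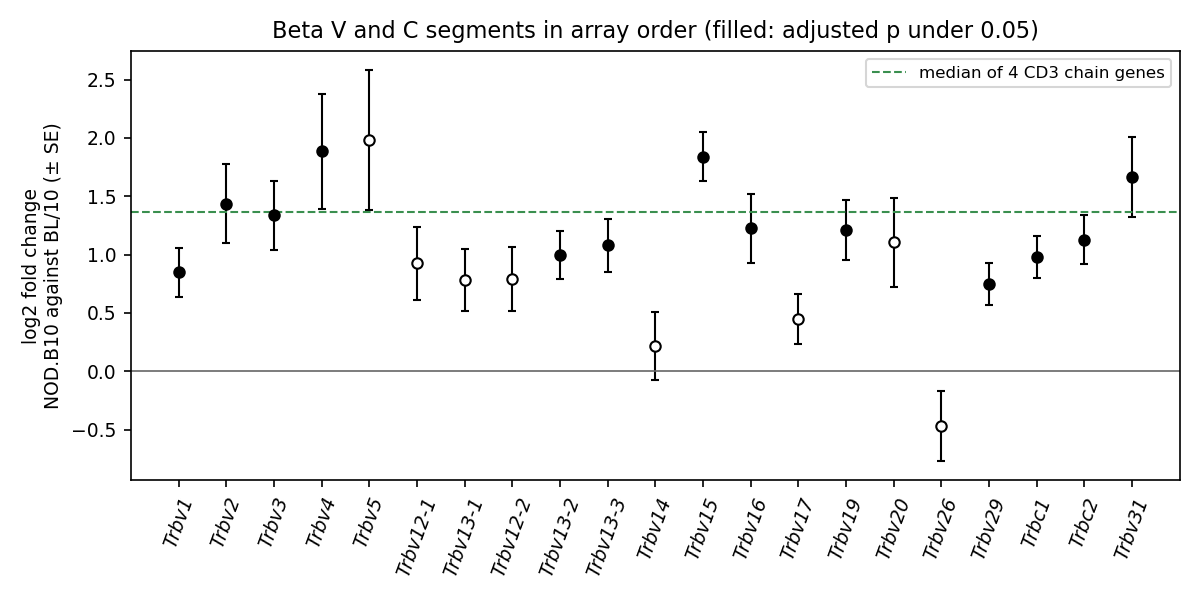
Log2 fold change of NOD.B10 against BL/10 (± standard error) for the 19 tested beta V segments and the 2 beta C segments in array order, filled where adjusted p was under 0.05. Most segments lie between 0.75 and 2, near the CD3 median of 1.37 (dashed line), while Trbv26 lies at -0.47, Trbv14 at 0.21 and Trbv17 at 0.45.

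The share of each segment in the beta V reads of a library does not depend on how much T cell RNA the library holds. Trbv26 made up 1.18%, 1.06% and 1.18% of beta V reads in NOD.B10 and 3.42%, 2.88% and 3.495% in BL/10. Trbv14 made up 3.24%, 2.96% and 2.49% in NOD.B10 and 5.0%, 6.04% and 4.10% in BL/10. Trbv15 was at 10.4%, 8.67% and 7.32% in NOD.B10 and at 4.58%, 5.35% and 5.32% in BL/10. Trbv26 and Trbv14 were thus lower and Trbv15 was higher in every NOD.B10 library than in any BL/10 library. They were not alone in this, since the shares of 11 of the 22 beta V segments did not overlap between strains. Trbv2, Trbv3, Trbv5, Trbv15, Trbv19 and Trbv31 were higher in all NOD.B10 libraries, and Trbv14, Trbv17, Trbv24, Trbv26 and Trbv30 were lower. Shares were taken within the beta locus, so they have no counterpart over all genes. The shares of Trbv13-2 overlapped, at 9.95%, 10.9% and 10.9% against 10.5%, 10.4% and 12.5%. The effective number of beta V segments, the exponential of the Shannon entropy of the shares, was 16.1, 16.6 and 16.3 in NOD.B10 and 17.2, 16.7 and 16.5 in BL/10. No test was made of the shares themselves. With counts scaled to the summed receptor reads of a library, Trbv26 (log2 fold change -1.60, adjusted p = 0.000216) and Trbv14 (-0.89, adjusted p = 0.0204) were lower and Trbv15 (0.71, adjusted p = 0.0480) was higher in edgeR's quasi-likelihood test. On that scale 13628 of 15330 genes were called in either direction. Trbv15 did not pass when scaled to the CD3 chain genes, as described further on.

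**Figure D4:**
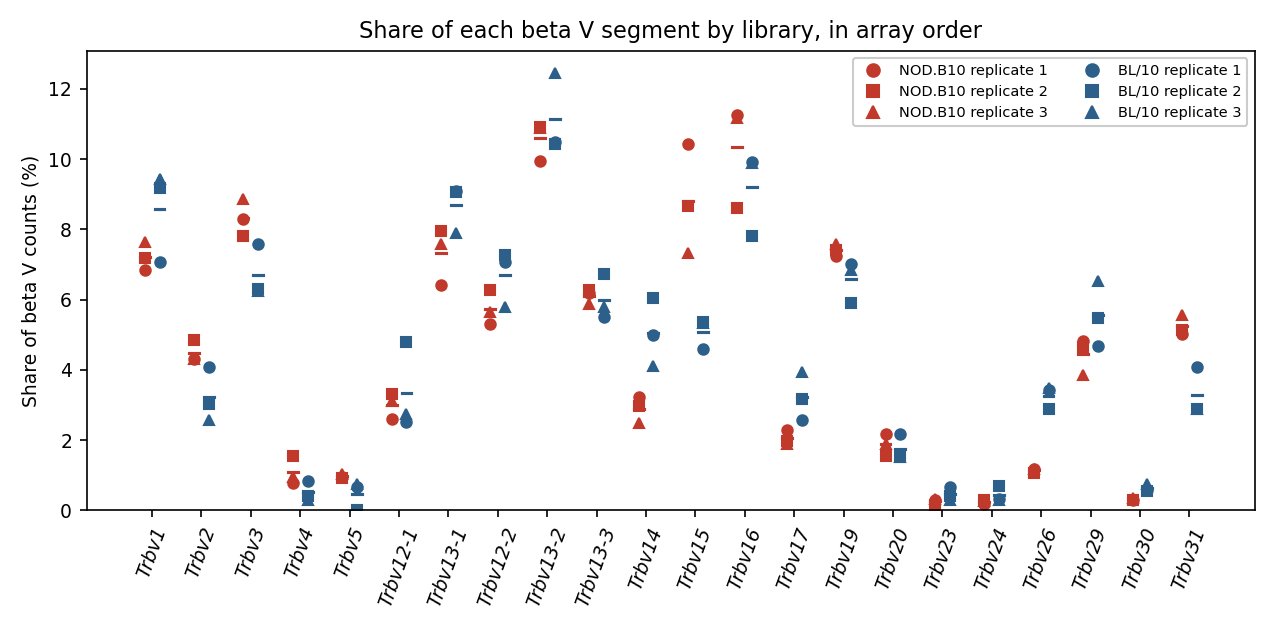
Share (%) of each beta V segment in the summed beta V reads of a library, in array order, 1 point per library and a bar at the mean of each strain. The shares of 11 of 22 segments do not overlap between strains, among them Trbv15 (higher in NOD.B10), Trbv26 and Trbv14 (lower), while those of Trbv13-2 overlap. Of the 11, Trbv5, Trbv24 and Trbv30 rest on few reads.

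To see which segments moved apart from the receptor as a whole, the counts were also scaled to the summed reads of the 4 CD3 chain genes in place of the library size. On this scale the median of all tested genes was -1.32 (log2), 1.58% of all genes were higher and 91.6% lower, and the median of the 29 receptor segments was -0.08. In either direction, 9 segments passed the same edgeR test (93.2% of all genes). Trav3-3, Trav5-4, Trav14-1, Trav15-1-dv6-1 and Trav6n-6 were higher relative to CD3. The first 4 are those with at most 1 read in BL/10. These alpha V segments, Trav6n-6 among them, all reached the test through their NOD.B10 reads alone, so their calls add no support. Trav6n-6 had a log2 fold change of 1.19 (adjusted p = 0.0277 from edgeR). The call of Trav6n-6 was lost with DESeq2 (adjusted p = 0.106) and, in edgeR, without NOD.B10 replicate 1 (adjusted p = 0.118) or BL/10 replicate 2 (adjusted p = 0.0998).

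Trbv26, Trbv14, Trgv2 and Trbv17 were lower relative to CD3. Their log2 fold changes were -1.76, -1.06, -1.03 and -0.87, with adjusted p of 5.3e-05, 0.00306, 0.0100 and 0.0156 from edgeR. With the 20 T lineage genes as the scale, Trbv26 remained lower (log2 fold change -1.36, adjusted p = 0.00133 from edgeR), whereas the other three did not pass (adjusted p = 0.0515 for Trbv14, 0.0988 for Trgv2 and 0.165 for Trbv17). Trbv15 did not pass relative to CD3 (log2 fold change 0.55, adjusted p = 0.0713 from edgeR). Nor did it pass with DESeq2 (adjusted p = 0.0775) or with a replicate block in edgeR (adjusted p = 0.162). Without 1 library its adjusted p in edgeR was 0.0608 to 0.325. With the T lineage genes as the scale Trbv15 was higher (log2 fold change 0.96, adjusted p = 0.00365 from edgeR). Trac was at -0.06 relative to CD3 (adjusted p = 0.780 from edgeR), Trbc2 at -0.18 and Trbc1 at -0.32.

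Gamma and delta segments were read less often. Trgv2, a V segment of the gamma chain, had 25, 16 and 26 reads in NOD.B10 and 20, 21 and 14 in BL/10, with overlap (log2 fold change 0.27, adjusted p = 0.550 from edgeR). The 4 gamma C genes, which carry the symbols Tcrg-C1 to Tcrg-C4 and so fall outside the rule, had 165, 135 and 180 reads in NOD.B10 and 105, 166 and 136 in BL/10, and 0 of 4 passed the test. Tcrg-V1, Tcrg-V3 and Tcrg-V4, gamma V genes also outside the rule, together had 25, 18 and 26 reads in NOD.B10. In BL/10 they had 14, 13 and 6, without overlap, and none had enough reads for the test. These gamma C and V genes were looked up after the values of the segments were seen. The 4 delta V segments had too few reads for the test. Trdv4 had 1, 3 and 2 reads in NOD.B10 and 7, 8 and 5 in BL/10, Trdv2-2 had 6, 12 and 12 against 5, 9 and 7, and Trdv1 and Trdv5 had at most 6 reads in any library. Of 6 tested genes of a gamma-delta T cell list, 0 passed in either direction, and Il17a was at 0 in all libraries.

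Of 4 genes that build receptors, 2 had enough reads for the test, and both were lower in NOD.B10, opposite to the receptor segments. Rag1, which cuts DNA at the ends of V segments and is used by T and B cell precursors alike, had 4, 5 and 8 reads in NOD.B10 and 126, 297 and 179 in BL/10 (log2 fold change -5.16 ± 0.53 SE, with edgeR adjusted p = 0.00082). Dntt, which adds bases at the joints, had 21, 11 and 34 reads in NOD.B10 and 83, 128 and 82 in BL/10 (log2 fold change -2.18 ± 0.40 SE, with edgeR adjusted p = 0.0104). Neither overlapped between strains. Rag2 had 1, 0 and 0 reads against 5, 39 and 11, and Ptcra, the pre-T cell receptor alpha chain of thymocytes, had 4, 2 and 4 against 0 in each BL/10 library, both below the filter.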

How the data were processed

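RNA-seq libraries of spleens from 3 NOD.B10 and 3 BL/10 mice were analysed, and Myd88-deficient libraries named in the file header were not analysed here. The authors deposited raw read counts per gene, without normalization, with the exon length of each gene in bases. Reads were 50-base and single-end. The paper names Tophat2 as the aligner, whereas the submitters' processing notes list HISAT2 version 2.0.5. Per the file headers, reads on exons were counted with featureCounts version 1.5.1 and Ensembl annotation 84 of GRCm38, a C57BL/6J genome, without strand and leaving out reads placed at more than 1 site or on more than 1 gene. Segments with close copies, and alleles that differ from that genome, can therefore be undercounted.

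Symbols came from GENCODE M21 (47224 of 47729 identifiers matched). Counts were tested with R version 4.3.3 and edgeR version 4.0.16 (TMM, filterByExpr, quasi-likelihood test, Benjamini-Hochberg, adjusted p under 0.05, BL/10 as the reference). A second fit replaced library sizes by the summed counts of Cd3d, Cd3e, Cd3g and Cd247. Alternatives were DESeq2 version 1.42.0, limma version 3.58.1 (voom with quality weights), other scalings and filters, a replicate block, and leaving out libraries. The count test was tested on simulated data. A count of 3 was the floor, between 0.164 and 0.192 CPM of a library, and intervals and floors cover counting error only. P-values measure the spread between these mice. Unique 50-base windows were counted over GENCODE M21 transcripts.

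Segments named by rule were the C segments, the 3 most abundant V segments of each group, the 6 with the largest change each way in either fit, those read in 1 strain only, the CD3 genes, and segments of innate-like T cell receptors. The segments and the 12 gene lists were chosen with earlier results of these data known.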

Additional observations from a re-analysis of the deposited data

How the results depend on the processing

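The number of receptor segments called (19 of 29) was 22 with DESeq2 or limma-voom, 19 with RLE size factors or with receptor, immunoglobulin and hemoglobin genes left out of the scaling, 13 of 21 with at least 10 counts in every library, and 40 of 77 with at least 1 count in all libraries together. All were higher in NOD.B10. Over all 15330 genes, DESeq2 called 3319, limma-voom 3344, RLE size factors 2677 and the scaling without those genes 2675. The filter of at least 10 counts in every library called 2067 of 13949 genes, and that of at least 1 count called 3104 of 27067. Leaving out 1 library gave 9 (without NOD.B10 replicate 3) to 28 (without BL/10 replicate 1), with 11 without NOD.B10 replicate 1. Over all genes, these 3 fits called 1395 of 15582, 4107 of 15590 and 1269 of 15629, against 2656 of 15330 in the main fit. Without the libraries labelled 36 weeks, BL/10 was left with 1 library, assumed to vary like NOD.B10. Trac, Trbc1 and Trbc2 then had log2 fold changes of 0.92, 0.66 and 0.80, each below its main value. The median log2 fold change (1.21) was 0.99 with at least 10 counts in every library, 1.01 without the libraries labelled 36 weeks, and 1.02 to 1.52 without 1 library. Relative to CD3, 9 segments were called (5 higher, 4 lower), with 7 higher and 1 lower on the T lineage scale, 6 and 3 on the scale of summed receptor reads, 4 and 4 with DESeq2, and 8 to 11 without 1 library, where 4 to 6 were higher and 3 to 6 lower. Trbv14 changed sign to -0.066 without BL/10 replicate 3 and to -0.13 without the libraries labelled 36 weeks (-0.066 to 0.42 without 1 library), with no call in any setting. For these changes the cause was not tested. The ratio of the run of alpha V segments (71.8) was 34.1 relative to the other alpha V segments, 64.2 over segments with mostly unique windows, and 58.0 to 94.0 without 1 library, settings chosen after seeing the data. Replicate numbers of the strains did not pair the libraries (correlations of deviations 0.02, 0.12 and -0.09), and with a replicate block 17 segments were called, 9 relative to CD3. Over all 15330 genes the replicate block called 2889, and 13950 relative to CD3. Of 357 refits of named genes, 311 kept direction and call, 40 lost the call and 4 gained it. Most alpha V segments had too few reads for the filter, and how far depth or reads lost to close copies set this was not tested.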
